A study of Homo sapiens with 12 samples.

Results

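Alpha and beta tubulin genes were followed in 2 cancer cell lines, LC-2/ad and TPC-1, before and after the RET kinase inhibitor selpercatinib. The list named 10 genes: the alpha genes TUBA1A, TUBA1B, TUBA1C and TUBA4A and the beta genes TUBB, TUBB2A, TUBB2B, TUBB3, TUBB4B and TUBB6. They were chosen by gene symbol, after the TPM values and the treated-against-parent results of these tables had been seen, so their levels and calls below are a description and support nothing further. Of the 10 symbols, 9 had a row among the 37247 gene identifiers of each table, 4 alpha and 5 beta, and TUBB was not analysed here. All statements on beta tubulin therefore leave out TUBB.

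LC-2/ad is a lung adenocarcinoma line and TPC-1 a papillary thyroid carcinoma line, and the study describes both as having an altered RET gene. The 4 groups were untreated parent cells of either line and cells of either line given selpercatinib at 100 nM for 48 h, and each group had 3 libraries. RPMI-1640 medium with serum was used for TPC-1, and the same mixed with F-12 for LC-2/ad. The labels do not say whether the parent cells received solvent, or whether the 3 libraries came from separate cultures, so the spread behind each p-value is that of libraries and may be purely technical.

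Microtubules are built from heterodimers of an alpha and a beta tubulin chain, and in human cells several genes encode closely related chains of each kind, called isotypes. The chains are folded with the help of prefoldin, the chaperonin CCT and the tubulin cofactors, and new microtubules are nucleated by gamma tubulin rings. Dividing cells build the mitotic spindle from these dimers, and cells adjust tubulin mRNA to the free dimer pool: the factor TTC5 binds the first residues of a nascent tubulin chain at the ribosome and, through SCAPER and the CCR4-NOT deadenylase, marks that mRNA for decay. TUBA1A, TUBB2A, TUBB2B and TUBB3 are best known from neurons, TUBB4B from many tissues and from cilia, and TUBA1B and TUBA1C from most dividing cells.

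The start of the coding sequence, which encodes the residues read in this feedback, was alike within each family. The first 18 coding bases of the 9 genes, taken from the GENCODE 29 reference on GRCh38, are given 5′ to 3′ with the first 4 codons in capitals.
TUBA1A: ATGCGTGAGTGCatctcc
TUBA1B: ATGCGTGAGTGCatctcc
TUBA1C: ATGCGTGAGTGCatctcc
TUBA4A: ATGCGTGAATGCatctca
TUBB2A: ATGCGCGAGATCgtgcac
TUBB2B: ATGCGTGAGATCgtgcac
TUBB3: ATGAGGGAGATCgtgcac
TUBB4B: ATGAGGGAAATCgtgcac
TUBB6: ATGAGGGAGATCgtgcac
TUBA1A, TUBA1B and TUBA1C were identical over these bases, as were TUBB3 and TUBB6.

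The 3 TUBA1 genes also shared most of their coding sequence, which bears on how reads are assigned among them. TUBA1A and TUBA1B were 97.2% identical over the coding sequence, TUBA1B and TUBA1C 96.8%, and TUBA1A and TUBA1C 95.9%. Over whole transcripts, 41.3% of the 31-base words of TUBA1A also occurred in another listed tubulin gene, mostly TUBA1C, against 28.6% for TUBA1B and 29.7% for TUBA1C. TUBB2A and TUBB2B shared 57.8% and 46.1% of their words with each other and were 98.1% identical in coding sequence. TUBA4A, TUBB3, TUBB4B and TUBB6 shared at most 6.4% with other listed genes. With any other annotated gene, pseudogenes and overlapping genes included, the shares were 36.3% for TUBB3, 22.5% for TUBA4A, 20.9% for TUBB6 and 19.5% for TUBB4B, and 40.0% to 63.5% for the other 5 members. The split of reads among TUBA1A, TUBA1B and TUBA1C, and between TUBB2A and TUBB2B, is thus less certain than their sums, which are given below.

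In the whole tables, each library summed to 1000000 TPM and held 12554 to 14336 genes at 1 TPM or more. TPM values count transcripts per fixed library total, corrected for gene length, and the depth is unknown. Mitochondrially encoded genes took 9.72% to 9.82% of TPM in LC-2/ad parent libraries and 14.01% to 14.95% after the drug, and 5.83% to 7.56% in TPC-1. RET mRNA, encoding the drug's target, was at 16.05 ± 0.422 TPM (SD, n = 3) in LC-2/ad parents and 21.4 ± 0.683 after treatment, and at 7.04 ± 0.203 and 6.85 ± 0.124 in TPC-1. LC-2/ad cells carried lung markers, with NKX2-1, NAPSA and SLC34A2 above 1 TPM, SFTPB below it and SFTPC at 0 in all its libraries. TPC-1 cells had PAX8 and FOXE1, but the thyroid-defining TG and TSHR had group means below 1 TPM and NKX2-1 was at 0. LC-2/ad held both factors too. FOXE1 averaged 11.6 TPM in LC-2/ad parents and 36.2 after the drug, against 9.11 and 9.27 in TPC-1. PAX8 averaged 14.8 and 21.9 TPM in LC-2/ad, against 190 and 271 in TPC-1. Of 10 neuron and neuroendocrine markers with a row, none had a mean above 1 TPM in LC-2/ad parents, and the 10 summed to 1.35 to 2.22 TPM there, 1.79 to 4.18 after the drug, and 13.61 to 18.02 in TPC-1. ELAVL4, SNAP25 and INSM1 were at 0 in all 12 libraries, and NCAM1 made up most of the TPC-1 sum. Fibroblast, endothelial and blood markers summed to at most 46.4, 17.8 and 24.6 TPM in any library.

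TUBA1B and TUBA1C were the most abundant members in both lines, followed by TUBB4B. In LC-2/ad parents, TUBA1B averaged 1978 ± 19.6 TPM, TUBA1C 931 ± 18.8 and TUBB4B 666 ± 14.1 (SD, n = 3), whereas TUBA4A stood at 140.1 ± 4.199 and the other 5 members were below 25 TPM in each library. The range of TUBB3 over the LC-2/ad parent libraries overlapped that of TUBB6, and every other pair of neighbours in the order of levels was separated. In TPC-1 parents TUBA1B averaged 4463 ± 17.9 TPM, TUBA1C 1798 ± 34.0 and TUBB4B 1058 ± 9.09, and TUBB6 came next at 663 ± 72.4. There only TUBA1A and TUBA4A overlapped as neighbours.

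All 9 members were higher in each of the 6 TPC-1 libraries than in any LC-2/ad library. Of 11996 genes with a mean of at least 1 TPM in each line, 59.2% did not overlap between the lines, and 23.1% were higher in all TPC-1 libraries. The parent lines were furthest apart in TUBB6, a divergent beta chain of broad expression, at 28.4-fold, and in TUBA1A, at 25.6-fold. TUBB3 was 7.52-fold, TUBB2A 6.47-fold and TUBB2B 4.47-fold higher in TPC-1 parents, and the abundant TUBA1B, TUBA1C and TUBB4B 2.26-, 1.93- and 1.59-fold. The 2 tables were made for different lines and media, so line, tissue and medium cannot be told apart, and no test was made on these levels.

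**Figure D1:**
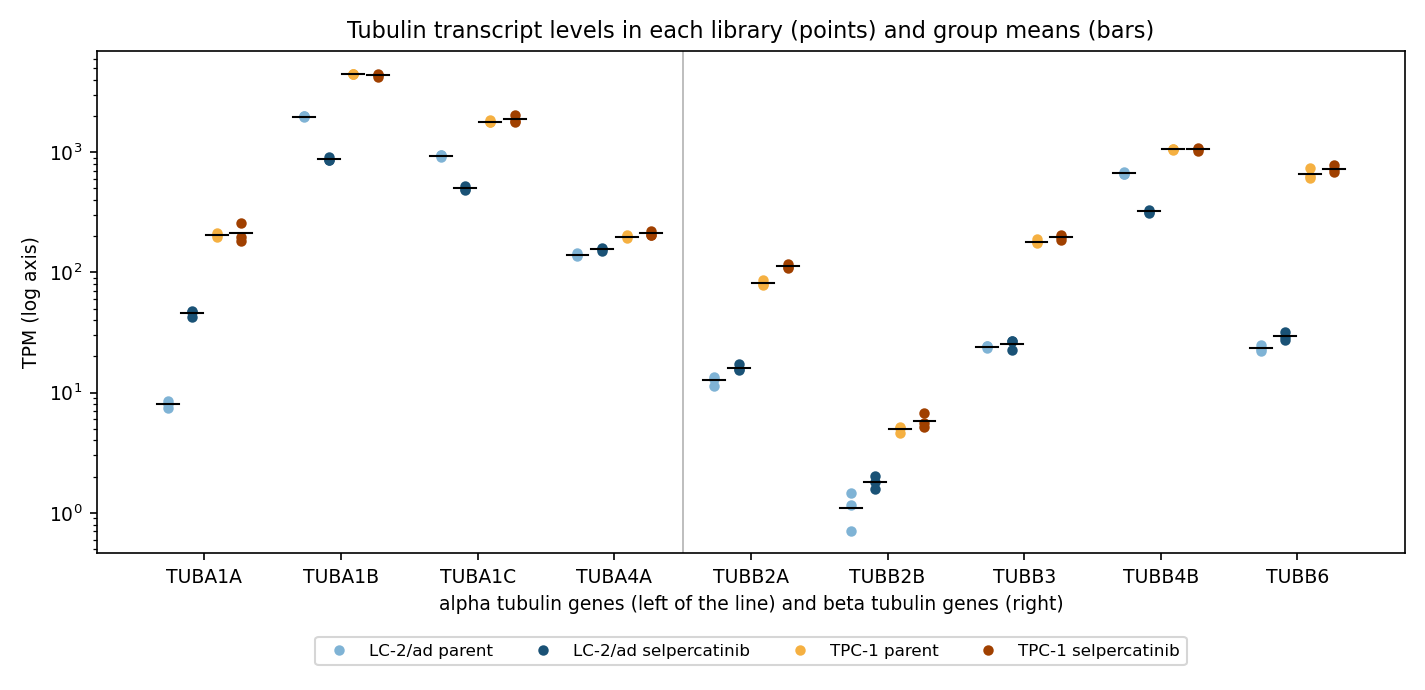
TPM of the 9 tubulin genes in each of 12 libraries on a log axis, with points for libraries and black bars for group means of 3. In LC-2/ad, TUBA1B, TUBA1C and TUBB4B sit lower after selpercatinib and TUBA1A higher, while TPC-1 groups lie close together.

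In LC-2/ad cells selpercatinib was followed by lower levels of the 3 abundant tubulin mRNAs and by a higher level of TUBA1A. TUBA1B fell 2.24-fold, TUBB4B 2.07-fold and TUBA1C 1.86-fold, and TUBA1A rose 5.69-fold from a low level. TUBA4A, TUBB2A and TUBB6 rose by 1.11- to 1.28-fold. TUBB2B and TUBB3 did not pass the test. With limma on log2(TPM + 1) and Benjamini-Hochberg adjustment over 14118 genes, 7 of 9 members were called at an adjusted p under 0.05, 4 higher and 3 lower. Over all genes tested in LC-2/ad, 55.0% were called, 30.6% higher and 24.4% lower, and the median log2 fold change was 0.07 for all genes and 0.15 for the members. The split of all called genes, 4319 higher and 3451 lower, turned to 3442 and 4318 with median-of-ratios scaling and was 5216 and 2833 without mitochondrial genes. The fold changes on the log2(TPM + 1) scale understate the change of low genes.

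TUBA1B (ENSG00000123416), the main alpha tubulin of most dividing cells, lies on the minus strand of chromosome 12 at 49127782 to 49131397 (GRCh38). Its LC-2/ad parent libraries held 1956, 1982 and 1995 TPM and the treated ones 864, 867 and 914. The groups did not overlap, and the highest treated library was far below the lowest parent. The log2 fold change was -1.16 ± 0.03 (SE), with an adjusted p of 2.07e-07 in limma.

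TUBA1C (ENSG00000167553), on the plus strand of the same chromosome at 49188736 to 49274603, encodes a near-identical chain. It was at 939, 944 and 909 TPM in LC-2/ad parents and at 484, 497 and 524 after selpercatinib. The treated libraries again lay well below the parents, and the log2 fold change was -0.89 ± 0.04 (adjusted p 1.31e-06 in limma).

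TUBA1A (ENSG00000167552), the alpha chain best known from postmitotic neurons, lies on the minus strand of chromosome 12 at 49184796 to 49189324. It moved the other way: LC-2/ad parents held 8.10, 8.48 and 7.49 TPM and treated libraries 46.8, 47.5 and 42.7. The treated range lay wholly above the parent range, and the log2 fold change was 2.37 ± 0.07 (adjusted p 4.38e-07 in limma). TUBA1A remained scarce beside its relatives, at 45.7 ± 2.61 TPM against 882 ± 27.9 for TUBA1B after treatment. Its annotated exons share 490 bases with those of TUBA1C on the opposite strand, 14.3% of its exonic length. Whether counting used strand is not given in the sources used here, so this value is uncertain. TUBA1C fell in the same libraries. The same limit holds for TUBB6, which shares 20.3% of its exonic length with AFG3L2, for TUBA4A, which shares 15.4% with STK16, and for TUBB2B, which shares 7.93% with PSMG4. In LC-2/ad parents AFG3L2 averaged 21.1 TPM, STK16 32.4 and PSMG4 18.5, all on the strand opposite to the tubulin gene. Also on the opposite strand, TUBA1B shares 36.6% of its exonic length with AC011603.2 and TUBA1C 14.4% with AC125611.3. Neither of these had a row, so their levels are unknown and the limit holds for TUBA1B and TUBA1C too. TUBB4B shares 5.87% with FAM166A, and TUBB3 35.8% with AC092143.1 on its own strand, at up to 0.392 and 0.098 TPM in any library.

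Of the 10 neuron and neuroendocrine markers, 4 had no signal in the treated LC-2/ad cells. RBFOX3, a splicing factor of neurons, was the only one with a treated mean of at least 1 TPM, at 0.730, 0.572 and 1.26 TPM in parents and 3.20, 0.552 and 1.91 after the drug. These ranges overlapped and the adjusted p was 0.232 in limma. In TPC-1, where TUBA1A was not called, RBFOX3 was at 0.997, 0.548 and 0.727 TPM and then at 4.78, 6.73 and 1.44, with an adjusted p of 0.0633 in limma. The part of neuronal genes in the TUBA1A result was not tested.

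TUBA4A (ENSG00000127824; chromosome 2, 219249711 to 219278170, minus strand), an alpha chain whose gene encodes no final tyrosine, was at 139.6, 144.5 and 136.1 TPM in LC-2/ad parents. Treated libraries held 157.1, 151.5 and 158.1 TPM, all above the parents. The log2 fold change was 0.15 ± 0.04 with an adjusted p of 0.0123 in limma. With libraries rescaled by median-of-ratios the change was 0.06 and the adjusted p 0.268, which ends the call.

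TUBB4B (ENSG00000188229; chromosome 9, 137241213 to 137243707, plus strand), the most abundant beta gene with a row, followed TUBA1B. Its LC-2/ad parents held 682, 658 and 659 TPM and its treated libraries 313, 321 and 332. No treated library came near the parents, and the log2 fold change was -1.05 ± 0.03 with an adjusted p of 4.94e-07 in limma.

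TUBB6 (ENSG00000176014; chromosome 18, 12307669 to 12344320, plus strand) was at 22.1, 23.1 and 24.8 TPM in LC-2/ad parents and 31.9, 27.6 and 29.04 after the drug. These groups did not overlap, and the log2 fold change was 0.33 ± 0.07, with an adjusted p of 0.00665 in limma. TUBB2A (ENSG00000137267; chromosome 6, 3153669 to 3157526, minus strand), a beta chain abundant in brain, was at 13.6, 11.4 and 12.9 TPM in parents and 15.4, 15.8 and 17.3 after treatment. The treated libraries were all higher, and the log2 fold change was 0.33 ± 0.09 (adjusted p 0.0124 in limma).

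TUBB2B (ENSG00000137285; chromosome 6, 3224261 to 3231730, minus strand), the close copy of TUBB2A, was near the lower limit of the test. LC-2/ad parents held 1.45, 1.15 and 0.713 TPM and treated libraries 1.81, 1.58 and 2.02. The ranges did not overlap, but the log2 fold change of 0.43 ± 0.19 was not called, with an adjusted p of 0.087 in limma. TUBB2A and TUBB2B summed to 13.7 ± 1.23 TPM in parents and 17.96 ± 1.19 after the drug. This sum depends less on how reads were split between these copies than either value does. It is not free of the split, because TPM is corrected for gene length, and reads shared with other genes can still enter it.

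TUBB3 (ENSG00000258947; chromosome 16, 89921392 to 89938761, plus strand), the beta chain used to stain neurons, had 24.3, 24.2 and 23.4 TPM in LC-2/ad parents. Treated libraries held 26.7, 22.8 and 27.0 TPM, a range that overlapped the parents. The log2 fold change was 0.08 ± 0.08, with an adjusted p of 0.396 in limma.

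**Figure D2:**
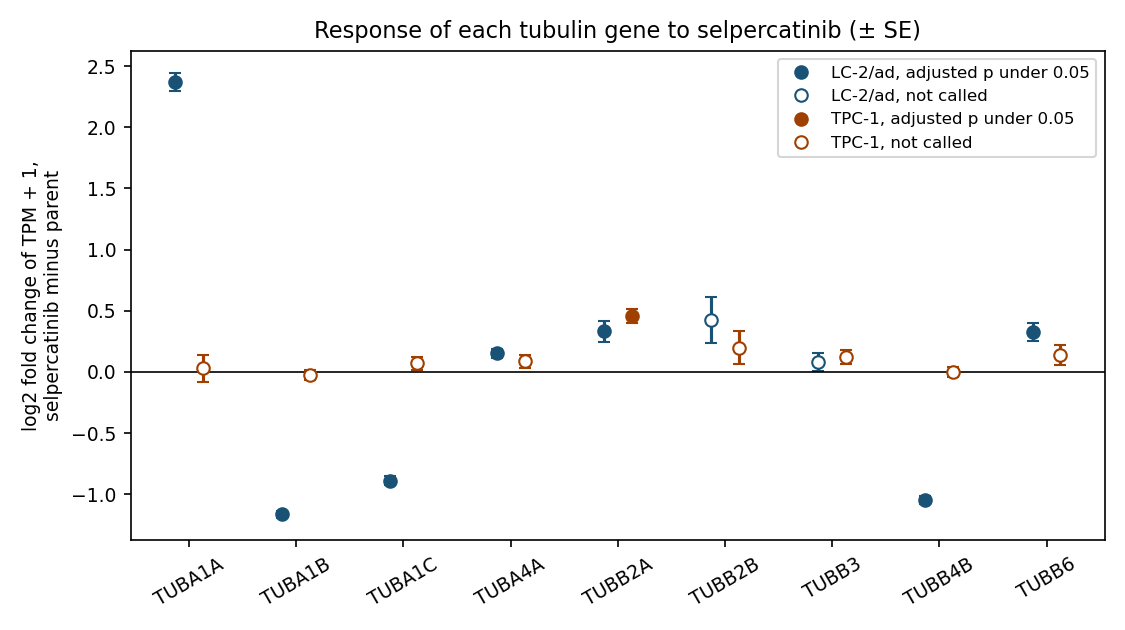
Log2 fold change of TPM + 1 (selpercatinib minus parent) with its standard error for each tubulin gene, LC-2/ad in blue and TPC-1 in brown, filled where the adjusted p was under 0.05. In LC-2/ad 7 of 9 points are filled, from -1.16 for TUBA1B to 2.37 for TUBA1A, and in TPC-1 only TUBB2A, at 0.46.

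Because 3 abundant genes set the totals, summed tubulin mRNA in LC-2/ad was lower in all 3 treated libraries than in any parent library. The 4 alpha genes summed to 3057 ± 19.8 TPM in parents and 1585 ± 47.2 after selpercatinib (SD, n = 3), 1.93-fold lower. The 5 beta genes summed to 727 ± 14.5 and 395 ± 11.1 TPM, 1.84-fold lower. Neither pair of groups overlapped, although with 3 against 3 libraries an exact permutation test cannot go below p = 0.1, so no p is given for the sums. The sum of TUBA1A, TUBA1B and TUBA1C, which depends less on the split of reads among them, was 2917 ± 16.3 TPM in parents and 1429 ± 45.5 after treatment. Gene length and reads shared with other genes limit this sum too.

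The makeup of the tubulin mRNA pool changed with the totals. TUBA1B made up 64.7% ± 0.648 of alpha TPM in LC-2/ad parents and 55.6% ± 0.159 after the drug, whereas TUBA1C kept near its share, at 30.5% ± 0.542 and 31.6% ± 0.425. TUBA4A went from 4.58% ± 0.113 to 9.82% ± 0.263 and TUBA1A from 0.262% ± 0.0152 to 2.89% ± 0.244. None of these 4 shares overlapped between the groups. How often genes in general were separated in this way was not computed, so this cannot be set against all genes. The shares of a family sum to a fixed total, so a lower share of TUBA1B is met by higher shares among the rest. The higher share of TUBA4A accompanied a change of only 1.11-fold in its own level.

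Among the 5 beta genes TUBB4B went from 91.6% ± 0.167 to 81.5% ± 1.03 of the sum. TUBB6 went from 3.21% ± 0.236 to 7.49% ± 0.632, TUBB3 from 3.30% ± 0.0659 to 6.46% ± 0.523 and TUBB2A from 1.73% ± 0.124 to 4.09% ± 0.145. TUBB2B was at 0.152% ± 0.0489 and 0.456% ± 0.0450. No share overlapped between groups, including that of TUBB3, whose own level was not called. The rate of such separation over all genes was not computed. Because TUBB4B held most of a fixed total, a lower TUBB4B level by itself raises the shares of the rest, so these shares are not independent. TUBB6 and TUBB2A were also called higher in their own levels, at 1.27- and 1.28-fold, whereas TUBB3 and TUBB2B were not called.

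**Figure D3:**
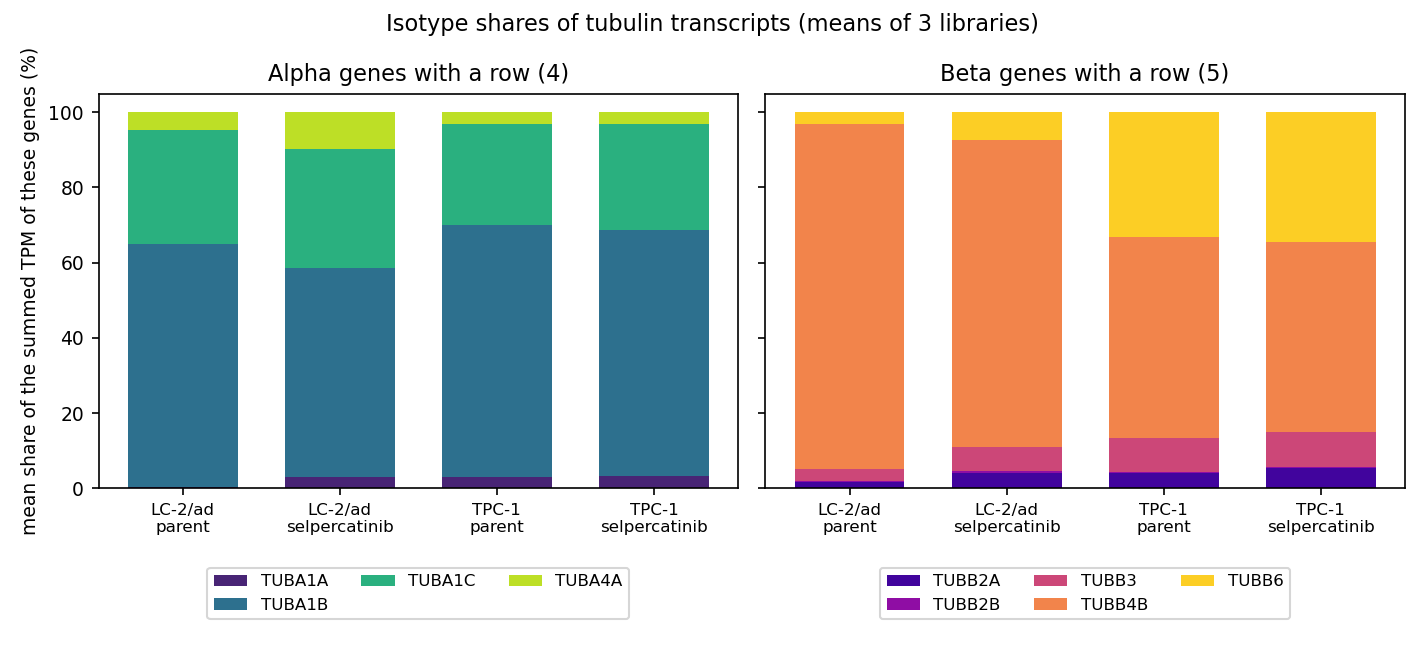
Mean share of each gene in the summed TPM of the 4 alpha genes (left) and the 5 beta genes with a row (right), as stacked bars for the 4 groups of 3 libraries. In LC-2/ad, TUBB4B goes from 91.6% to 81.5% of the beta sum after selpercatinib, while in TPC-1 it is at 53.3% and 50.4%.

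In TPC-1 cells the same dose and time left most tubulin mRNAs within the spread of the libraries. TUBB2A rose 1.38-fold and was the only member called, 1 of 9, by limma over 12825 genes. Over all genes tested in TPC-1, 4.96% were called and 3.75% were called higher. These 636 genes became 337 and 292 without the second or the third parent library, and 335 and 339 without the first or the second treated one, while TUBB2A stayed the only member called in each fit. TUBA1B and TUBB4B, which fell in LC-2/ad, were at 0.98-fold and 1.00-fold of the parent level, and the median log2 fold change of the members was 0.09 against 0.05 for all genes. At an unadjusted p under 0.05, the count of members was also 1. The share of all genes at that threshold was not computed. This count, and those for the partner lists below, therefore cannot be set against all genes.

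TUBB2A in TPC-1 went from 85.9, 80.8 and 78.3 TPM to 111.4, 117.1 and 109.3, and all 3 treated libraries were above all parents. Its log2 fold change was 0.46 ± 0.06 with an adjusted p of 0.00328 in limma. Its copy TUBB2B was at 4.61, 5.05 and 5.17 TPM in parents and 5.14, 6.78 and 5.62 after treatment, an overlap, with an adjusted p of 0.439 in limma. Together both copies summed to 86.6 ± 3.58 and 118 ± 4.80 TPM. TUBB2A was thus the only member called in both lines, and in the same direction.

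The abundant genes in TPC-1 showed no called change. TUBA1B was at 4483, 4450.5 and 4454 TPM in parents and 4423, 4504 and 4201 after the drug, with a log2 fold change of -0.03 ± 0.04. TUBA1C was at 1837, 1782 and 1774 and then at 1834, 2043 and 1792 TPM, with a log2 fold change of 0.07 ± 0.05. Both pairs of groups overlapped. TUBB4B was at 1048, 1061 and 1066 TPM and then at 1063, 1091 and 1022, with a log2 fold change of 0.00 ± 0.04. The spread of its treated libraries covered that of the parents.

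TUBA1A in TPC-1 was at 213.9, 205.8 and 195.7 TPM in parents and at 182.6, 196.7 and 255.2 after the drug. Its log2 fold change was 0.03 ± 0.11, and -0.11 without the third treated library, which stood above all the others. TUBA4A was at 199.5, 194.1 and 202.9 TPM and then at 222.7, 205.3 and 205.6. Its groups did not overlap, but the log2 fold change of 0.09 ± 0.05 was not called, with an adjusted p of 0.382 in limma.

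TUBB6 in TPC-1 was at 745, 633 and 609.7 TPM in parents and 775, 723 and 684 after treatment, and TUBB3 at 188.4, 178.6 and 174.4 and then 186.3, 204.6 and 198.3. Both genes overlapped between groups. Their log2 fold changes were 0.14 ± 0.08 and 0.12 ± 0.06, with adjusted p of 0.36 and 0.253 in limma. The alpha sum was 6664 ± 59.9 TPM in TPC-1 parents and 6689 ± 248 after the drug, and the beta sum 1988 ± 73.996 and 2101 ± 70.7. Both sums overlapped.

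Shares in TPC-1 moved by at most 2.89 percentage points, the value for TUBB4B. TUBB2A went from 4.11% ± 0.0504 to 5.36% ± 0.142 of the beta sum, with no overlap. TUBA1B, at 67.0% ± 0.337 and 65.4% ± 0.842 of the alpha sum, and TUBA1C, at 27.0% ± 0.268 and 28.2% ± 1.02, did not overlap between groups either. TUBB6 held 33.3% ± 2.36 and 34.6% ± 1.39 of the beta sum in TPC-1, against 3.21% in LC-2/ad parents.

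The difference between the lines in drug response was tested with limma over all 12 libraries and 11996 genes. It was called for 4 of 9 members, and over all genes tested 36.6% were called. TUBA1B differed by 1.14 ± 0.05 on the log2 scale (TPC-1 minus LC-2/ad; adjusted p 1.14e-08 in limma). TUBB4B differed by 1.05 ± 0.05 (adjusted p 2.74e-08 in limma), TUBA1C by 0.96 ± 0.07 and TUBA1A by -2.34 ± 0.14. The 4 genes were thus those with the largest changes in LC-2/ad. For TUBB2A, called in both lines, the difference was 0.13 ± 0.10 with an adjusted p of 0.354 in limma. TUBA4A, TUBB2B, TUBB3 and TUBB6 also did not pass, with differences of -0.06 ± 0.06, -0.23 ± 0.22, 0.04 ± 0.09 and -0.19 ± 0.11.

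Markers of proliferating cells moved with the abundant tubulins. In LC-2/ad all 5 of MKI67, TOP2A, CCNB1, CDK1 and PLK1 fell (adjusted p of 1.06e-06 or less in limma), from a summed 630 to 659 TPM in parents to 174.1 to 175.7 after the drug. MKI67 went from 59.1 to 17.0 TPM and CCNB1 from 248.8 to 75.04 (group means). In TPC-1 none of the 5 was called, and they summed to 672 to 714 TPM in parents and 649 to 726 after treatment. Their part in the tubulin result was not tested. In these bulk libraries, fewer cells of a type and less RNA per cell cannot be told apart. Of 10 motile ciliated cell markers, FOXJ1 fell in LC-2/ad from 9.73 to 0.403 TPM and CAPS rose from 2.62 to 6.69, and the 10 summed to 19.0 to 21.7 TPM in parents and 17.1 to 20.5 after the drug. The part of ciliated-cell genes in the TUBB4B result was not tested.

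The genes most like TUBA1B over the 12 libraries, after subtracting each line's mean, were CCNB1, CDC20 and RRM2. Among 7084 genes with at least 10 TPM in each line, CCNB1 and CDC20 each had a Pearson r of 0.999 with TUBA1B and RRM2 0.998. For TUBB4B the 3 nearest were RRM2 at 0.999, TUBA1B at 0.998 and PA2G4 at 0.998. All these genes changed little in TPC-1, so the coefficients mainly reflect the step between parent and treated LC-2/ad libraries. Any gene that fell cleanly there and stayed flat in TPC-1 would score high. RRM2, a subunit of ribonucleotide reductase, went from 258 to 62.0 TPM in LC-2/ad and from 277 to 269 in TPC-1. The ratio of its LC-2/ad group means was thus larger than that of TUBA1B.

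Upstream sequence is shown for TUBA1B and TUBB4B, which moved together, and for TUBB2A, the member called in both lines. The stretches come from RefSeq promoter windows (GRCh38.p14), trimmed of annotated exons, and run 5′ to 3′ on the gene's strand. Capitals mark matches on either strand that lie wholly inside the stretch: the CCAAT box, the CHR-type motif TTTGAA with its variant TTCGAA, the GC box GGGCGG, the TATA-type motif TATAA, the E-box CACGTG and the cyclic AMP response element TGACGTCA.
TUBA1B, chr12:49131398-49131645, minus strand: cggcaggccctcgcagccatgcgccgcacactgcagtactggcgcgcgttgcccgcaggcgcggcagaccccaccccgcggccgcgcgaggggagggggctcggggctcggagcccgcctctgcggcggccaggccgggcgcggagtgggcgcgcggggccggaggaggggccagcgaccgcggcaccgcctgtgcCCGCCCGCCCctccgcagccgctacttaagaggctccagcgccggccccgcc
TUBB4B, chr9:137241037-137241212, plus strand: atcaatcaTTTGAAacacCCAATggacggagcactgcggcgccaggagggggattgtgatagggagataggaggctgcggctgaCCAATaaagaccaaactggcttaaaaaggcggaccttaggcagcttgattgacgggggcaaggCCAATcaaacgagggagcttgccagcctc
TUBB2A, chr6:3157545-3157794, minus strand: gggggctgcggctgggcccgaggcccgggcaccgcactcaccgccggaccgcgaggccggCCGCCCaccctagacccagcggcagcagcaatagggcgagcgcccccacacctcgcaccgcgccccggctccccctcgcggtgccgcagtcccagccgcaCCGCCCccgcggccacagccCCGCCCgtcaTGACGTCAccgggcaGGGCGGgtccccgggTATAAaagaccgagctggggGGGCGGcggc
In the 250 bases before its start, TUBB4B held 3 CCAAT matches, 1 TTTGAA match and 1 TATAA match nearer the start than the printed stretch. TUBA1B had 3 GGGCGG matches and none to CCAAT, and TUBB2A had 5 GGGCGG matches with 1 TATAA and 1 TGACGTCA match. Of 35116 RefSeq windows of this length, 32.0% held CCAAT, 13.3% TTTGAA, 1.2% TTCGAA, 42.6% GGGCGG, 18.9% TATAA, 6.3% CACGTG and 1.6% TGACGTCA. These matches are a description of the letters and were not tested against the responses. TUBA1B and TUBB4B shared none of the 7 motifs in these windows. TUBA1C, which also fell and is not shown, held a CCAAT match in each of its windows. Its window at 49264832 to 49265081 also held 2 TTTGAA, 2 GGGCGG and 1 TATAA match. TUBA1A, which rose, held 2 CCAAT matches.

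Genes that fold tubulin mostly fell in LC-2/ad. Of 21 tested folding chaperones and cofactors, 14 fell and 3 rose, where 24.4% of all genes fell and 30.6% rose, and the list's median log2 fold change was -0.50 against 0.07 for all genes. With median-of-ratios scaling 16 fell and 1 rose. CCT5, a chaperonin subunit, went from 1049 ± 57.6 to 589 ± 17.7 TPM (log2 fold change -0.83 ± 0.04), CCT8 by -0.77 ± 0.04 and TCP1 by -0.73 ± 0.03. All 8 chaperonin subunits on the list fell, by -0.59 to -0.83, a group singled out after its values were seen. The cofactor TBCA, which holds beta tubulin, fell by 0.50 on the log2 scale. TBCEL, a TBCE-like protein, rose by 0.55, TBCD by 0.21 and PFDN5 by 0.19, and of these only TBCEL was called with median-of-ratios scaling (adjusted p for TBCD 0.0607 and for PFDN5 0.0812 in limma). In TPC-1, where 4.96% of all genes were called, none of the 21 was called by limma. There 2 had an unadjusted p under 0.05, and the median was -0.03. The difference between lines was called for 17 of 21, of which 15 were higher in TPC-1 and 2 lower. Over all genes tested for this difference, 36.6% were called. PFDN6, at 0.90 ± 0.73 in LC-2/ad, varied too much between parent libraries to be called.

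Gamma tubulin and its ring complex, which nucleate microtubules, also fell in part in LC-2/ad. TUBG1, the main gamma tubulin gene, went from 117 ± 4.97 to 59.7 ± 2.42 TPM, a log2 fold change of -0.96 ± 0.05 (adjusted p 3.96e-06 in limma). Its close copy TUBG2 rose from 17.3 ± 2.21 to 23.8 ± 2.10 TPM (0.44 ± 0.10). TUBD1, delta tubulin, changed by -0.37 ± 0.12, a call lost when mitochondrial genes were removed (adjusted p 0.074 in limma), and TUBE1, epsilon tubulin, was not called at 0.12 ± 0.13.

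Of 12 ring complex and anchoring genes tested, 8 fell and 2 rose in LC-2/ad, where 24.4% of all genes fell and 30.6% rose. The list's median was -0.36, against 0.07 for all genes. Without mitochondrial genes 7 fell and 2 rose. MZT1, a small ring subunit, changed by -1.24 ± 0.11, TUBGCP3 by -0.80 ± 0.07 and the anchor NEDD1 by -0.60 ± 0.14, whereas TUBGCP6 rose by 0.54 ± 0.11. In TPC-1, PCNT, the pericentrin scaffold, rose by 0.42 ± 0.10 (adjusted p 0.0435 in limma) and the other 11 were not called. Over all genes tested in that line, 4.96% were called. None of the 4 gamma, delta and epsilon genes was called in TPC-1 by limma, and 1 had an unadjusted p under 0.05. TUBG1 was at 97.8 ± 2.98 and 101 ± 4.13 TPM there, and its response differed between the lines by 1.01 ± 0.07 (adjusted p 4.94e-07 in limma).

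None of the feedback genes was called under each scaling. Of 5 autoregulation genes, SCAPER rose by 0.41 ± 0.14 in LC-2/ad and CNOT10 fell by 0.22 on the log2 scale, with adjusted p of 0.0392 and 0.0413 in limma. SCAPER had an adjusted p of 0.0801 with median-of-ratios and CNOT10 of 0.145 without mitochondrial genes, both in limma. CNOT11, at -0.16 with an adjusted p of 0.0521, was called lower with median-of-ratios (-0.26, adjusted p 0.00646 in limma). TTC5, the factor that reads nascent tubulin, was not called in either line. None of the 5 was called by limma in TPC-1, where 4.96% of all genes were called, and 1 had an unadjusted p under 0.05.

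Of 18 tested enzymes that modify tubulin, 7 were called higher and 3 lower in LC-2/ad, with a median of 0.22. The 10 called are near the 55.0% of all genes called. With median-of-ratios scaling only 4 of the 18 were called higher, and 9 were without mitochondrial genes. TTLL1, a polyglutamylase, rose from 2.55 ± 0.222 to 6.61 ± 0.311 TPM (1.10 ± 0.11). TTL, the ligase that restores the final tyrosine of alpha tubulin, fell from 15.7 ± 0.842 to 8.96 ± 0.237 TPM (-0.75 ± 0.07), and TTLL12 changed by -0.74 ± 0.06. The deacetylases HDAC6 and SIRT2 rose by 0.36 and 0.50. ATAT1, the alpha tubulin acetyltransferase, had 1.27 ± 1.17 TPM in parents and 2.50 ± 0.645 after the drug and was not called. None of the 18 tested in TPC-1 was called by limma, where 4.96% of all genes were called. Nor did any of the 18 have an unadjusted p under 0.05.

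Genes for proteins that shorten or sever microtubules had the lowest median of the lists in LC-2/ad. There 9 of 13 tested fell and none rose, where 24.4% of all genes fell and 30.6% rose. The list's median was -1.02, against 0.07 for all genes. Without mitochondrial genes 8 fell and SPAST, the severing enzyme spastin, rose by 0.25 (adjusted p 0.0469 in limma). KIF2C, a mitotic depolymerase, went from 59.2 ± 1.499 to 14.9 ± 0.615 TPM (-1.92 ± 0.06). KIF18B changed by -1.66 ± 0.07, KIF24 by -1.22 ± 0.10 and STMN3, a stathmin that sequesters dimers, by -1.55 ± 0.09. STMN1, the abundant stathmin, fell by 1.02 on the log2 scale. Of 12 tested in TPC-1, where 4.96% of all genes were called, none was called by limma and 2 had an unadjusted p under 0.05. KIF18B was at 0.32 ± 0.13 and STMN1 at -0.18 ± 0.06 in that line.

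Of 20 stabilisers and plus-end proteins, 7 were called higher and 6 lower in LC-2/ad, near the shares over all genes, with a median of 0.07 for both the list and all genes. The median was -0.03 with median-of-ratios scaling. The spindle proteins TPX2 and PRC1 fell by -1.73 ± 0.05 and -1.59 ± 0.06. MAPRE2, an end-binding protein, rose from 4.12 ± 0.616 to 10.6 ± 2.80 TPM (1.16 ± 0.18) and MAP1B, a microtubule-associated protein of neurons, from 3.14 ± 0.383 to 7.55 ± 0.696 (1.05 ± 0.12). MAP1B and MAPRE2, named for the size of their change, rose in LC-2/ad as TUBA1A did. TUBB3, also known from neurons, was not called there, and a link among these genes was not tested. In TPC-1, PRC1 rose by 0.27 ± 0.06 (adjusted p 0.0453 in limma), and MAP7D1 by 0.24. With median-of-ratios scaling neither was called, and the adjusted p of PRC1 was 0.0754 in limma.

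**Figure D4:**
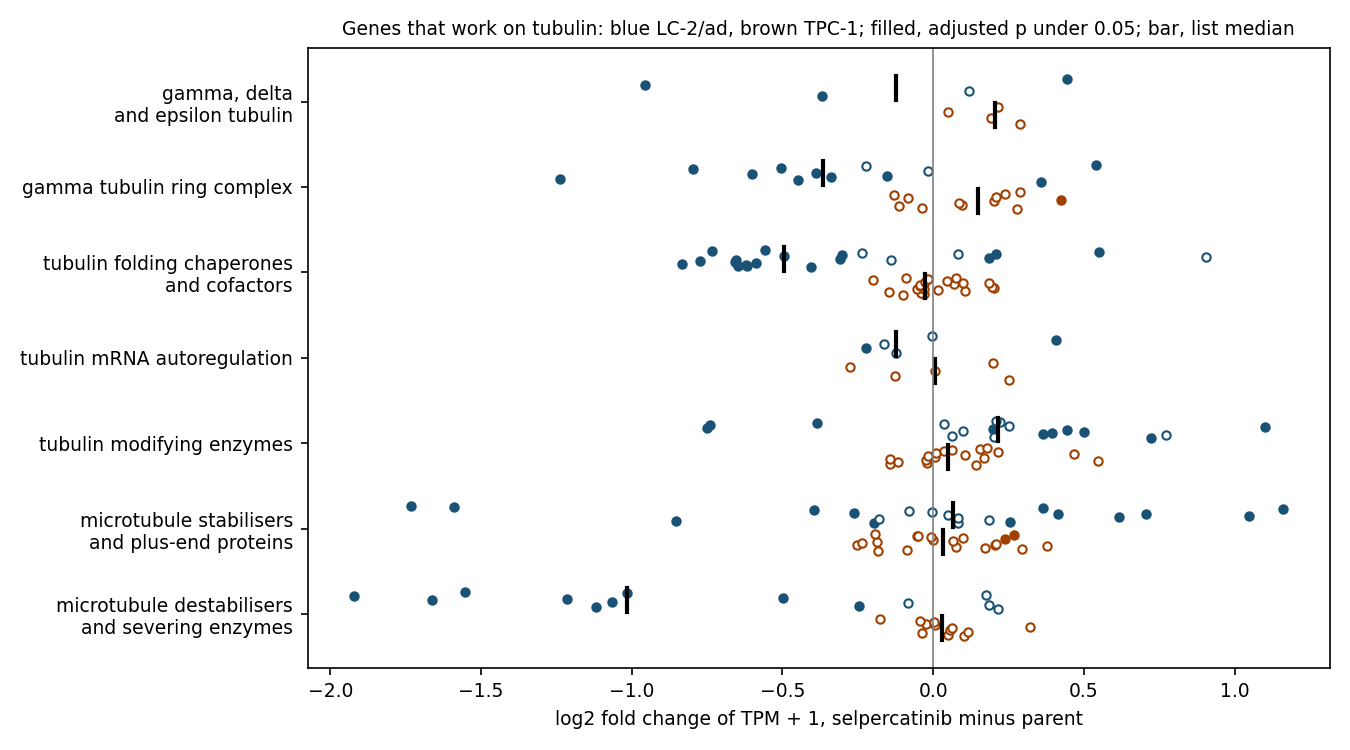
Log2 fold change of TPM + 1 (selpercatinib minus parent) of genes that fold, nucleate, modify, stabilise or shorten microtubules, LC-2/ad in blue and TPC-1 in brown, filled where the adjusted p was under 0.05, with a black bar at each list's median. The LC-2/ad medians run from -1.02 for destabilisers to 0.22 for modifying enzymes, and 3 brown points are filled.

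The 9 alpha and beta tubulin genes outside the list added almost nothing. Only TUBB4A reached the 1 TPM minimum, in LC-2/ad, where it was at 0.872 ± 0.594 TPM in parents and 1.18 ± 0.600 after the drug, with an adjusted p of 0.555 in limma. None reached it in TPC-1. With all of them added, the LC-2/ad alpha sum changed by -0.95 on the log2 scale, as it did without them. Of 74 protein-coding genes within 1 Mb of TUBB in the reference, 14 had no row (18.9%), against 192 of 19877 elsewhere (1.0%). PFDN6 and ATAT1 also lie on chromosome 6 and varied widely between libraries, and their values are uncertain.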

How the data were processed

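RNA-seq of 12 libraries (3 in each of 4 groups) was used as deposited: TPM per gene and library, 1 table for each line, with Ensembl identifiers. Salmon, bcl2fastq 2.20.0 and the build GRCh38 are listed in the submitters' processing notes, where no role is stated. How transcripts were summed to genes, strand and annotation are not given in the sources used here. Each deposited TPM column summed to 1000000, so depth is unknown, no counting interval is given, and error is given as the SD over 3 libraries.

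Symbols came from a table of gene names and matched 34436 of 37247 identifiers (92.5%). Values were transformed as log2(TPM + 1), genes with a mean of at least 1 TPM were kept, and limma 3.58.1 in R 4.3.3 was fitted with a variance trend, within each line and, for the difference of response, over all 12 libraries. P-values were Benjamini-Hochberg adjusted over all genes tested and called under 0.05. The fit was also run on simulated data with independent noise for each gene and library, and its outcome is not reported here. Shares are percentages of the summed TPM of the 4 alpha or 5 beta members with a row. The plan counted 6 beta genes, but TUBB had no row.

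Sequence work used Python 3.11.15 and Biopython 1.88 on the GENCODE 29 annotation and RefSeq promoters. The members and gene lists were chosen with earlier results of these data known. All members are named. Other tubulin genes are named from 1 TPM, other lists by up to 4 genes per line with the largest change, plus the 3 genes most like the leading alpha and beta members, RET and markers; further genes named beside list counts were chosen after their values were seen. Alternatives were other pseudocounts (0.1 and 5), no filter or a minimum of 5 TPM, removal of mitochondrial genes, scaling by median-of-ratios, a fit with no variance trend, a replicate block and leaving out each library.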

Additional observations from a re-analysis of the deposited data

Results flagged for a closer look

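Responses to selpercatinib that differed between the lines, by limma's test of the difference itself (adjusted p under 0.05 over all genes tested), are given for the tubulin genes and for the partner genes with the largest changes in either line, as the log2 fold change in TPC-1 minus that in LC-2/ad. A positive value means a response that was higher in TPC-1. With 36.6% of all genes called in this test, a difference by itself does not set a gene apart.

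Among the tubulin genes, the difference was TUBA1A -2.34, TUBA1B 1.14, TUBA1C 0.96 and TUBB4B 1.05. For gamma and delta tubulin and the ring complex it was TUBG1 1.01, TUBD1 0.66, MZT1 1.12, TUBGCP3 1.00, NEDD1 0.80 and PCNT 0.81. The partner lists hold more such genes than are named: 17 of 21 folding genes, 7 of 12 ring complex genes, 6 of 17 modifying enzymes, 10 of 20 stabilisers and 7 of 12 destabilisers passed. For the folding genes it was CCT5 0.94, CCT8 0.74, TCP1 0.81, PFDN1 0.34, PFDN2 0.85 and TBCB 0.49. The modifying enzymes differed by TTLL1 -0.99, TTL 0.73 and TTLL12 0.75, and the feedback gene SCAPER by -0.69. For stabilisers and plus-end proteins it was TPX2 1.54, PRC1 1.86, MAPRE2 -1.22, MAP1B -0.84 and CLIP2 -0.87, and for destabilisers KIF2C 1.92, KIF18B 1.98, KIF24 1.22 and STMN1 0.84. Groups of 3 libraries were too small to look for single libraries that stand apart.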

How the results depend on the processing

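In LC-2/ad 6 to 8 members were called across all alternatives, with 6 under median-of-ratios scaling and 8 without a variance trend. In TPC-1 1 member was called under each, and for the difference 4. Scaling set the split of all called LC-2/ad genes: 4319 higher and 3451 lower as reported, 3442 and 4318 with median-of-ratios, 5216 and 2833 without mitochondrial genes. The median log2 fold change of all LC-2/ad genes was 0.07 as reported and 0.14 without mitochondrial genes. The LC-2/ad alpha sum changed by -1.04 and -0.87 (log2) under these scalings and the beta sum by -0.98 and -0.80. The TPC-1 alpha sum was -0.0523 and -0.0049, and -0.0231 to 0.0304 when leaving out each library. TPC-1 genes called numbered 272 without a filter, 356 without a trend and 292 to 815 when leaving out each library, against 636.

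Calls changed for LC-2/ad TUBA4A (0.06, lost with median-of-ratios) and TUBB2B (0.43, adjusted p 0.0459 in limma without a trend). Reversed values, none called, were LC-2/ad TUBB3 (-0.0108), TPC-1 TUBA1A (-0.0271) and TPC-1 TUBB4B (-0.057) with median-of-ratios, and without mitochondrial genes TPC-1 TUBB4B (-0.0098) and the difference for TUBB3 (-0.0463). Leaving out each library gave -0.11 to 0.13 for TPC-1 TUBA1A, -0.0499 to 0.0002 for TUBA1B and -0.0217 to 0.0255 for TUBB4B, and -0.0358 to 0.0817 for the TUBB3 difference. The cause was not tested.

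With the replicate number as a block, 7357 LC-2/ad genes (7 members), 542 TPC-1 genes (1 member) and 4 members for the difference were called. Same-numbered libraries did not deviate together over all genes kept: the correlation was -0.048 to -0.015 in LC-2/ad and -0.026 to 0.054 in TPC-1. With 3 libraries in a group these values cannot exclude a pairing, and whether the number marks one is unknown. Median-of-ratios was the only scaling run between libraries besides mitochondrial removal, and depth cannot be judged from TPM.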
